A study of Mus musculus with 9 samples.

Results

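Described here are 10 inflammatory and regulatory cytokine genes of mouse peritoneal macrophages: Tnf, Il1a, Il1rn, Il6, Osm, Lif, Il12b, Il27, Il10 and Il15. They were chosen by name, and their Ensembl identifiers were matched to symbols through the GENCODE M21 annotation of mouse genome build GRCm38. All 10 were found among the 47729 identifiers of each count table, and 7 passed the filter on low counts (Tnf, Il1a, Il1rn, Il6, Osm, Il27 and Il15). The other 3 (Il10, Il12b and Lif) had at most 17 reads in a library and were not tested.

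RNA was sequenced from sorted peritoneal macrophages of 3 groups with 3 libraries each. Tissue-converted macrophages came from mice given 2 ml of thioglycollate, a broth whose injection recruits monocytes to the peritoneal cavity, and then kept on a tamoxifen diet for 10 weeks. Tissue-resident macrophages came from mice for which the labels list no thioglycollate and no tamoxifen. Monocyte-derived macrophages were taken 4 days after 2 ml of thioglycollate. Mice of every group carried the alleles Cx3cr1CreERT2-IRES-EYFP/+ and Rosa26-stopfl-tdTomato/+, in which the Cx3cr1 locus drives a tamoxifen-inducible Cre that switches on the red protein tdTomato. Mice of every group also received IL-4 complexes (5 µg of IL-4 with 25 µg of an antibody to IL-4) every other day from 4 days before harvest, so no group shows macrophages without IL-4. Whether each library came from its own mouse is not stated, so p-values here reflect only how far the libraries of a group spread, and that spread could be technical. Age is not given, and chromatin accessibility data of the same study were not analysed here.

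Between 15220884 and 20496258 reads were assigned to genes per library. All 8 macrophage markers were read in every group. Their summed level was 6340 to 7910 counts per 1000000 assigned reads (CPM) in converted, 6690 to 7010 CPM in resident and 3840 to 6520 CPM in monocyte-derived libraries. The sum joins markers that went opposite ways. Adgre1 averaged 3077 CPM in converted, 2978 CPM in resident and 343 CPM in monocyte-derived libraries. In the same order Lyz2 averaged 576, 437 and 1837 CPM, and Fcgr1 0.467, 0.538 and 15.9 CPM. Gata6, a transcription factor of resident peritoneal macrophages, averaged 161 CPM in converted, 160 CPM in resident and 1.43 CPM in monocyte-derived libraries. Libraries also held transcripts of other cells: summed B cell markers reached 48.1 to 111 CPM in converted, 694 to 926 CPM in resident and 15.7 to 38.5 CPM in monocyte-derived libraries, and summed neutrophil markers 1.52 to 1.79 CPM, 0.892 to 1.98 CPM and 18.6 to 52.6 CPM in the same order. The Y-linked gene Ddx3y averaged 91.5 CPM in converted, 90.6 CPM in resident and 0 CPM in monocyte-derived libraries. The X-inactivation transcript Xist averaged 0 CPM, 0.0326 CPM and 64.7 CPM in these groups. The labels give a harvest 4 days after thioglycollate only for the monocyte-derived group. Sex, origin and recent thioglycollate therefore cannot be told apart in either comparison with monocyte-derived macrophages. The tamoxifen diet, listed only for the converted group, is a further such difference between converted and monocyte-derived macrophages. Between converted and resident macrophages, origin, earlier thioglycollate and the tamoxifen diet cannot be told apart. Monocyte-derived library 1 stood apart from the other two of its group, with chi-square values per degree of freedom of 92.8 and 66.3 against them, compared with 31.9 between the other two.

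Macrophages are a main source of these cytokines. TNF and IL-1α start inflammatory signalling through NF-kB, and the product of Il1rn, the IL-1 receptor antagonist, blocks the receptor that IL-1α and IL-1β share. IL-6, oncostatin M and LIF signal through the gp130 chain and STAT3, IL-12 and IL-27 are paired-subunit cytokines that steer T cells, IL-10 dampens macrophage activation, and IL-15, shown to cells on its receptor chain IL-15Rα, sustains natural killer cells and memory T cells.

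The 250 bases upstream of a RefSeq transcription start are shown for 4 members because these genes span the range of differences: Tnf and Il1rn fell furthest below monocyte-derived macrophages, Il6 rose furthest above them, and Il1a encodes the agonist that the Il1rn product blocks. Sequences are from RefSeq for GRCm38.p6, written 5′ to 3′ on the gene's strand, and capitals mark CpG pairs, the sites of DNA methylation. The stretch of Tnf lies at chr17:35202008-35202257 on the minus strand, that of Il6 at chr5:30012864-30013113 on the plus strand, that of Il1a at chr2:129309973-129310222 on the minus strand and that of the first of the Il1rn starts at chr2:24336610-24336859 on the plus strand.
Tnf: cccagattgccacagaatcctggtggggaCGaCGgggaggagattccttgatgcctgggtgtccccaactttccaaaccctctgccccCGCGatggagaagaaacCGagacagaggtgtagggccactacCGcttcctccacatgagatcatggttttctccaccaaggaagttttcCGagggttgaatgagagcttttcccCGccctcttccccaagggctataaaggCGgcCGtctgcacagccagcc
Il6: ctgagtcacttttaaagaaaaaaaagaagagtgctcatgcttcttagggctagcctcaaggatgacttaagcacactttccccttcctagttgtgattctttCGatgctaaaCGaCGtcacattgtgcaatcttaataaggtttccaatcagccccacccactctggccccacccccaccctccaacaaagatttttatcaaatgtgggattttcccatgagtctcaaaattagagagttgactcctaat
Il1a: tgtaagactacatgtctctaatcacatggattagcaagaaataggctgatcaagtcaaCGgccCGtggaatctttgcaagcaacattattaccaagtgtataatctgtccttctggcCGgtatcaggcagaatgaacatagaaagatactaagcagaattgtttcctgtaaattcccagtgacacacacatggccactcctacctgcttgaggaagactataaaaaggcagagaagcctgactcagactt
Il1rn: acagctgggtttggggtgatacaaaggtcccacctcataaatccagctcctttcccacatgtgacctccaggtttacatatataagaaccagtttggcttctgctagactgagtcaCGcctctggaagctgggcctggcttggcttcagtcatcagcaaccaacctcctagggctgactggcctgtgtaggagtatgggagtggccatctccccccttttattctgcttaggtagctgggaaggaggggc

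Tnf had 10 CpG pairs and 57.6% G and C in this stretch, Il6 had 3 and 42.8%, Il1a 3 and 42.4%, and Il1rn 1 and 53.2%. Over 32851 RefSeq stretches of the same length the median was 6 CpG pairs, with quartiles of 2 and 16, and 52.4% G and C. Tnf and Il1rn, which moved together, therefore stood on opposite sides of the median in CpG pairs. RefSeq lists 3 starts for Il1rn, and the gene counts do not tell which was used.

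Levels of the tested genes fell into 2 patterns. Il6, Osm, Il27 and, in resident cells, Il15 were higher in tissue macrophages than in monocyte-derived macrophages, whereas Tnf and Il1rn were lower, and no gene passed the test between converted and resident macrophages. In converted against monocyte-derived macrophages 5 of the 7 tested genes passed edgeR's quasi-likelihood test (3 higher, 2 lower), when 50.7% of all 13223 genes tested did (25.8% higher and 24.9% lower). Libraries of these groups did not overlap for 6 of the 7, compared with 56.3% of all genes. In resident against monocyte-derived macrophages 6 of 7 passed (4 higher, 2 lower), against 50.7% of all genes (25.7% higher and 24.9% lower), and libraries did not overlap for 7 of 7, compared with 59.5% of all genes. In converted against resident macrophages 0 of 7 passed by edgeR, DESeq2 or limma-voom, when 6.07% of all genes passed by edgeR (1.82% higher and 4.26% lower), and 1 of 7 (Il6) had an unadjusted p under 0.05. The first pair of comparisons share the monocyte-derived libraries and are not independent of each other. Median log2 fold changes over the 7 genes were 0.93, 1.17 and -0.18 in the 3 comparisons in this order, beside -0.01, 0.00 and 0.01 over all genes tested. In these bulk libraries, fewer cells that express a gene and less RNA per cell cannot be told apart.

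**Figure D1:**
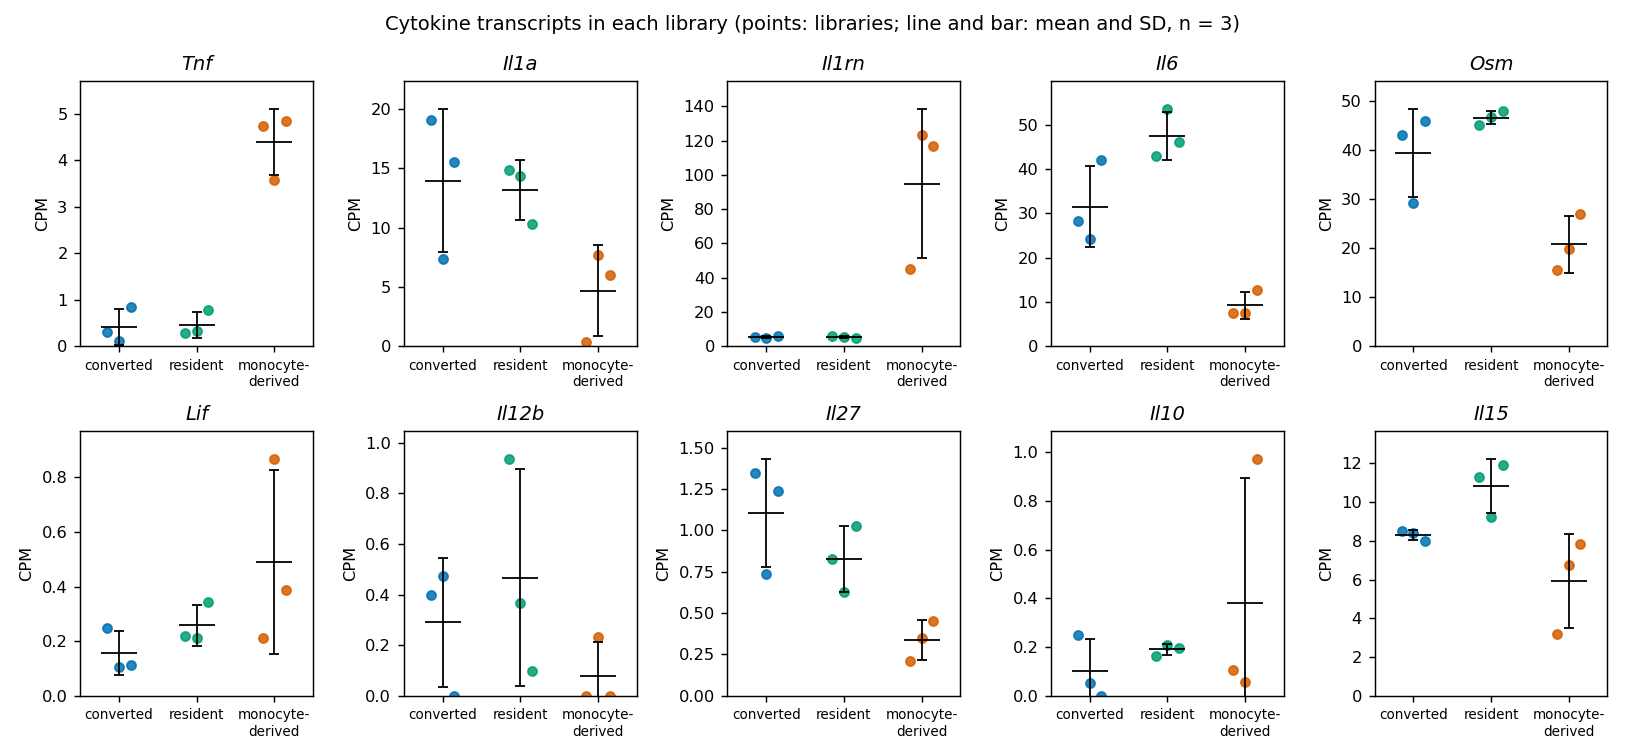
Levels of the 10 cytokine genes in CPM for each converted, resident and monocyte-derived library (points), with the mean and SD of 3 libraries as line and bar, cut at 0 where the SD exceeds the mean. Tnf and Il1rn stood highest in all 3 monocyte-derived libraries, and Il6, Osm and Il27 stood lowest there. The converted and resident points overlapped except for Il6 and Il15, where every converted point was below every resident point.

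**Figure D2:**
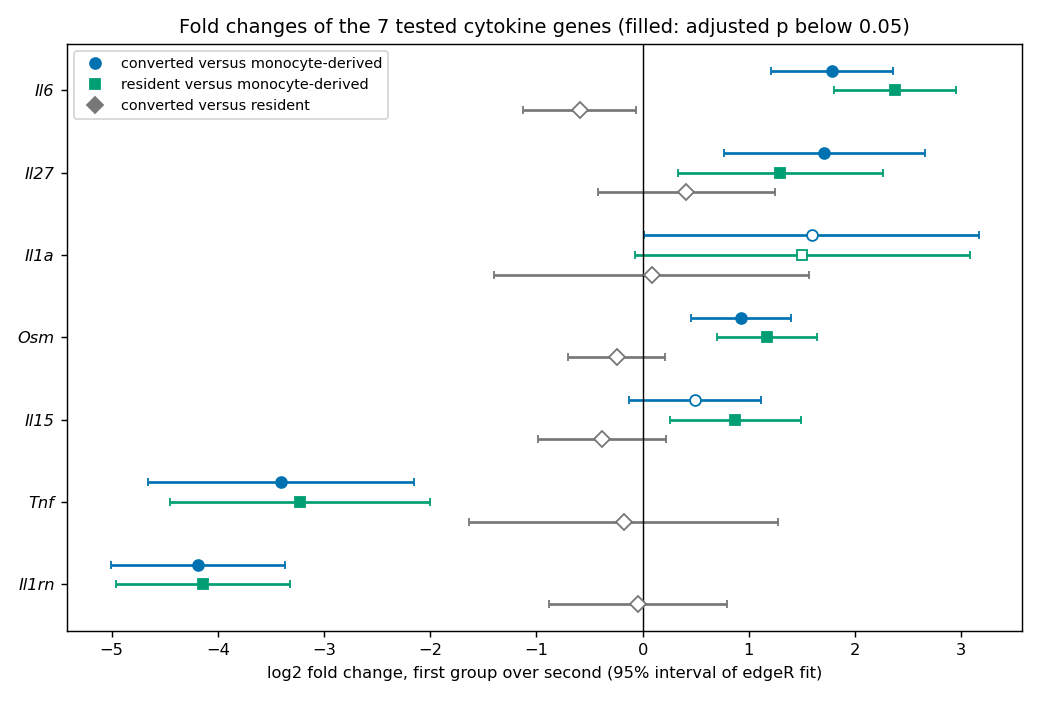
The log2 fold change of each tested cytokine gene in the 3 comparisons, with the 95% interval of the edgeR fit and filled symbols where the adjusted p was below 0.05. Il6, Il27 and Osm lay to the right of 0 and Tnf and Il1rn to the left in both comparisons with monocyte-derived macrophages, and every open grey diamond belongs to converted against resident macrophages.

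Tnf (ENSMUSG00000024401, chr17:35199381-35202007, minus strand), which encodes the cytokine TNF, had 0.299, 0.105 and 0.844 CPM in converted libraries, 0.275, 0.315 and 0.783 CPM in resident libraries, and 4.75, 3.58 and 4.86 CPM in monocyte-derived libraries. Every monocyte-derived library was above every converted and resident library, and the converted and resident values overlapped. Converted macrophages had 10.6-fold less Tnf than monocyte-derived macrophages (log2 fold change -3.40 ± 0.56 SE, edgeR adjusted p = 0.000667), and resident macrophages 9.36-fold less (log2 -3.23 ± 0.55, adjusted p = 0.000837). The values in tissue macrophages rest on few reads, 6, 2 and 15 in the converted libraries and 5, 6 and 16 in the resident ones. Between converted and resident macrophages the log2 fold change was -0.18 (edgeR adjusted p = 0.909). Its 95% interval ran from -1.63 to 1.28, so a difference in either direction within it remains possible. The sheddase that releases TNF from the membrane, Adam17, and its trafficking partner Rhbdf2 were lower too, at 96.3 and 32.5 CPM in converted, 79.4 and 38.4 CPM in resident, and 128.5 and 71.2 CPM in monocyte-derived macrophages. Each passed the edgeR test in both comparisons, with adjusted p between 1.32e-05 and 0.0131.

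Of the 2 receptors of TNF, Tnfrsf1b was lower in tissue macrophages at 154 ± 9.25 CPM in converted and 143 ± 2.33 CPM in resident cells, against 198 ± 7.85 CPM in monocyte-derived cells (SD, n = 3 each). These are 1.28-fold and 1.38-fold lower (edgeR adjusted p = 0.00211 and 0.000442). Tnfrsf1a, the receptor found on most cells, averaged 228 CPM in converted, 219 CPM in resident and 217 CPM in monocyte-derived macrophages and did not pass the test (adjusted p = 0.548 and 0.89 against monocyte-derived cells).

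Il1rn (ENSMUSG00000026981, chr2:24336853-24351494, plus strand), which encodes the IL-1 receptor antagonist, had 5.43, 4.41 and 5.74 CPM in converted libraries, 6.0, 5.19 and 4.89 CPM in resident libraries, and 44.8, 123 and 117 CPM in monocyte-derived libraries. The lowest monocyte-derived library, number 1, was still far above all 6 tissue libraries, and the converted and resident libraries overlapped. This was the largest difference among the 7 tested genes: 18.2-fold lower in converted macrophages (log2 -4.19 ± 0.37 SE, edgeR adjusted p = 1.5e-05) and 17.7-fold lower in resident macrophages (log2 -4.14 ± 0.37, adjusted p = 1.6e-05). Converted against resident macrophages gave a log2 fold change of -0.04 ± 0.37 (adjusted p = 0.962).

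Il1a (ENSMUSG00000027399, chr2:129299610-129309972, minus strand) encodes IL-1α, which the antagonist opposes. It had 19.1, 7.35 and 15.5 CPM in converted libraries, 14.9, 14.4 and 10.3 CPM in resident libraries, and 0.32, 7.69 and 6.02 CPM in monocyte-derived libraries. Monocyte-derived library 1 was lowest with 6 reads, compared with 133 and 93 in the other two, and converted library 2 fell inside the monocyte-derived range. Averages were 14.0 ± 6.01 CPM in converted, 13.2 ± 2.53 CPM in resident and 4.68 ± 3.86 CPM in monocyte-derived macrophages (SD, n = 3 each). The differences did not pass the edgeR test, with log2 fold changes of 1.59 ± 0.70 SE in converted (adjusted p = 0.0861) and 1.51 ± 0.70 in resident macrophages (adjusted p = 0.102). Without monocyte-derived library 1 the converted difference in Il1a passed at a log2 of 1.03 (adjusted p = 0.0427), and with limma-voom both passed, at 2.46 (adjusted p = 0.0439) in converted and 2.45 (adjusted p = 0.0434) in resident macrophages. Il1a shares 222 exon bases with the antisense gene Gm14023, which itself had at most 57 reads in a library and averaged 2.45 CPM in converted, 2.27 CPM in resident and 0.501 CPM in monocyte-derived macrophages. The strand setting of the counting is not given in the sources used here, so reads from these 2 genes may not be separated there.

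Per exon length, the level of Il1rn relative to Il1a was 0.101, 0.214 and 0.132 in converted libraries, 0.144, 0.128 and 0.17 in resident libraries, and 49.9, 5.70 and 6.91 in monocyte-derived libraries. Antagonist transcripts were thus below Il1a transcripts in all 6 tissue libraries and above them in all 3 monocyte-derived libraries and library 1 of that group, with 6 Il1a reads, lay furthest out. Il1b, which encodes the other IL-1 agonist, was also lower in tissue macrophages: it averaged 0.330 ± 0.349 CPM in converted and 0.378 ± 0.164 CPM in resident cells, against 4.48 ± 3.53 CPM in monocyte-derived cells. It was 13.6-fold and 11.5-fold lower (edgeR adjusted p = 0.0027 and 0.00345). The decoy receptor gene Il1r2, whose product binds IL-1 without signalling, had 4 reads over the 3 converted libraries, 2 over the resident and 229 over the monocyte-derived ones, and passed as lower in both comparisons (adjusted p = 0.000123 and 9.05e-05). Within the monocyte-derived group both Il1b (1.6, 3.41 and 8.42 CPM) and Il1r2 (3.73, 2.37 and 7.64 CPM) were highest in library 3. The summed level of the 7 neutrophil markers was highest there too, at 19.1, 18.6 and 52.6 CPM in the 3 libraries. S100a8, S100a9 and Retnlg peaked in library 3, but Cxcr2 (7.73, 2.49 and 6.15 CPM), Ly6g, Mpo and Camp did not. The sum was 1.52 to 1.79 CPM in converted libraries, where S100a9 and Camp were at 0. It was 0.892 to 1.98 CPM in resident libraries, where Mpo and Retnlg were at 0. Ly6g went the other way, averaging 0.542, 0.354 and 0.0711 CPM in converted, resident and monocyte-derived libraries. The part of these markers in the Il1b and Il1r2 differences was not tested. The signalling receptor Il1r1 averaged 3.26, 3.64 and 4.51 CPM in converted, resident and monocyte-derived macrophages and did not pass (adjusted p = 0.339 and 0.526).

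The related cytokine Il18 and its soluble inhibitor Il18bp were both higher in tissue macrophages. Il18 averaged 16.4 ± 0.729 CPM in converted and 20.7 ± 1.55 CPM in resident cells, against 2.64 ± 1.13 CPM in monocyte-derived cells, 6.26-fold and 7.88-fold higher (edgeR adjusted p = 2.81e-05 and 1.33e-05). Il18bp averaged 26.1 ± 2.22 CPM in converted and 31.3 ± 0.948 CPM in resident cells, against 6.56 ± 1.10 CPM in monocyte-derived cells. Casp1, the protease that activates IL-1β and IL-18, averaged 106 CPM in converted and 112 CPM in resident cells, against 55.6 CPM in monocyte-derived cells (1.91-fold and 2.01-fold higher, adjusted p = 0.000128 and 7.71e-05). Gsdmd, the pore protein through which they leave the cell, averaged 124 CPM in converted, 127.5 CPM in resident and 123 CPM in monocyte-derived cells and did not pass (adjusted p = 0.928 and 0.662).

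Il6 (ENSMUSG00000025746, chr5:30013114-30019981, plus strand) had 28.3, 24.3 and 42.0 CPM in converted libraries, 43.0, 53.5 and 46.2 CPM in resident libraries, and 7.36, 7.52 and 12.7 CPM in monocyte-derived libraries. All 6 tissue libraries were above all 3 monocyte-derived ones. The difference was 3.44-fold in converted macrophages (log2 1.78 ± 0.26 SE, edgeR adjusted p = 0.0003) and 5.20-fold in resident macrophages (log2 2.38 ± 0.26, adjusted p = 5.24e-05). Every converted library was also below every resident library, with means of 31.5 ± 9.26 CPM and 47.6 ± 5.42 CPM, but the closest values were 42.0 and 43.0 CPM. That difference had a log2 fold change of -0.59 (95% interval from -1.13 to -0.06), an unadjusted p of 0.0325 and an adjusted p of 0.194, and did not pass. Libraries of the 2 groups did not overlap for 2 of the 7 tested cytokine genes, when this held for 37.3% of all genes.

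Osm (ENSMUSG00000058755, chr11:4236420-4241026, plus strand) encodes oncostatin M. It had 43.1, 29.2 and 45.9 CPM in converted libraries, 45.2, 46.8 and 48.0 CPM in resident libraries, and 15.5, 19.8 and 26.9 CPM in monocyte-derived libraries. The groups of tissue macrophages overlapped with each other and not with the monocyte-derived group, although converted library 2 came close to it. Osm was 1.90-fold higher in converted (log2 0.93 ± 0.21 SE, edgeR adjusted p = 0.00435) and 2.25-fold higher in resident macrophages (log2 1.17 ± 0.21, adjusted p = 0.00117). Lif (chr11:4257557-4272514, plus strand), the neighbouring gene of the same family, had 5, 2 and 2 reads in converted libraries, 4, 4 and 7 in resident libraries and 4, 15 and 6 in monocyte-derived libraries. These ranges overlapped, and no difference in Lif was detectable at this depth (unfiltered edgeR adjusted p = 0.13 in converted and 0.413 in resident against monocyte-derived cells).

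The shared signalling chain Il6st, which encodes gp130, moved against Il6 and Osm: it averaged 96.8 ± 13.4 CPM in converted and 90.1 ± 5.11 CPM in resident cells, against 198.9 ± 33.5 CPM in monocyte-derived cells, 2.06-fold and 2.21-fold lower (edgeR adjusted p = 0.000174 and 9.76e-05). Lifr encodes the chain that pairs with gp130 to bind LIF. It averaged 56.9 ± 8.63 CPM in converted and 74.8 ± 7.26 CPM in resident cells, against 31.9 ± 12.4 CPM in monocyte-derived cells. Lifr was 2.35-fold higher in resident cells (adjusted p = 0.0034), and the 1.78-fold difference in converted cells passed (adjusted p = 0.0231) but not without converted library 2 (0.0757) or without the filter on low counts (0.0793). Il6ra, which binds IL-6, averaged 86.9, 105 and 75.2 CPM in converted, resident and monocyte-derived cells and did not pass (adjusted p = 0.429 and 0.0752). Osmr, which encodes the oncostatin M receptor, had 10, 11 and 2 reads in all over the 3 libraries of these groups.

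Clcf1, another gp130 cytokine, was lower in tissue macrophages. It had 0.249, 0.21 and 0.169 CPM in converted libraries, 1.49, 2.31 and 2.15 CPM in resident libraries, and 5.55, 2.54 and 6.02 CPM in monocyte-derived libraries, with no overlap between any 2 groups. It was 21.6-fold lower in converted than in monocyte-derived macrophages (edgeR adjusted p = 2.73e-05) and 9.16-fold lower in converted than in resident macrophages (adjusted p = 0.00477). The 2.36-fold lower level in resident cells (adjusted p = 0.0119) was lost when resident library 1 was left out (0.0537). Summed natural killer cell markers were also lowest in converted libraries, at 1.59 to 2.42 CPM. They reached 14.8 to 23.9 CPM in resident and 16.1 to 92.5 CPM in monocyte-derived libraries, which overlapped. Dendritic cell markers summed to 4.54 to 5.57 CPM, 13.8 to 15.8 CPM and 16.0 to 50.7 CPM in these groups. Each of the 5 markers of either list was read in every group. Other lists ran differently: B cell, T cell and eosinophil marker sums were highest in resident libraries, and neutrophil sums overlapped between converted and resident libraries. The part of other cells in the Clcf1 differences was not tested.

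Il27 (ENSMUSG00000044701, chr7:126589010-126594941, minus strand) encodes the p28 subunit of IL-27. It had 1.35, 0.735 and 1.24 CPM in converted libraries, 0.825, 0.629 and 1.03 CPM in resident libraries, and 0.213, 0.347 and 0.453 CPM in monocyte-derived libraries. Tissue and monocyte-derived libraries did not overlap, but the monocyte-derived group had only 4, 6 and 7 reads. Il27 was 3.28-fold higher in converted (log2 1.71 ± 0.42 SE, edgeR adjusted p = 0.007) and 2.46-fold higher in resident macrophages (log2 1.30 ± 0.43, adjusted p = 0.0294). The resident difference in Il27 did not pass with DESeq2 (adjusted p = 0.0556), without the filter on low counts (0.0654), or without monocyte-derived library 1 (0.0998) or 2 (0.0568) or resident library 1 (0.0695) or 3 (0.109). Il27 shares 103 exon bases with the antisense gene Apobr, which had up to 1300 reads in a library and was itself higher, at 58.8 CPM in converted and 59.3 CPM in resident cells, against 26.7 CPM in monocyte-derived cells (2.2-fold and 2.22-fold, adjusted p = 0.000216 and 0.000208). Without a stated strand setting, reads of Apobr cannot be told apart from those of Il27 over the shared bases, and their part in the Il27 difference was not tested.

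Ebi3, whose product pairs with p28 to make IL-27, went the other way. It had 0.299, 0.0525 and 0.113 CPM in converted libraries, 0.33, 0.472 and 0.538 CPM in resident libraries, and 1.01, 2.08 and 2.65 CPM in monocyte-derived libraries, and the monocyte-derived libraries were all highest. It was 11.6-fold lower in converted and 4.19-fold lower in resident cells (edgeR adjusted p = 0.000609 and 0.00592). Il27ra, the receptor chain of IL-27, averaged 18.1 ± 4.52 CPM in converted and 23.3 ± 1.14 CPM in resident cells, against 31.5 ± 6.86 CPM in monocyte-derived cells, and passed as lower in converted cells (1.74-fold, adjusted p = 0.00864). Resident cells did not pass (adjusted p = 0.0993), nor did the difference between converted and resident cells (adjusted p = 0.363).

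Il12b (chr11:44400063-44414033, plus strand) encodes the p40 subunit that IL-12 and IL-23 share. It had 8, 9 and 0 reads in converted libraries, 17, 7 and 2 in resident libraries, and 0, 4 and 0 in monocyte-derived libraries. The groups overlapped, and a count of 0 allows up to 3 reads, or 0.147 to 0.194 CPM over the 9 libraries. Differences in Il12b were not detectable at this depth (unfiltered edgeR adjusted p = 0.39 in converted and 0.199 in resident cells against monocyte-derived cells). Its partner subunits were as scarce, with 2, 11 and 1 reads of Il12a and 3, 8 and 0 reads of Il23a over the converted, resident and monocyte-derived libraries.

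Il10 (chr1:131019845-131024974, plus strand), the regulatory cytokine among the 10, had 5, 1 and 0 reads in converted libraries, 3, 4 and 4 in resident libraries, and 2, 1 and 15 in monocyte-derived libraries. Most monocyte-derived reads came from library 3, and the other two lay within the range of the tissue libraries. No difference in Il10 was detectable at this depth (unfiltered edgeR adjusted p = 0.277 in converted and 0.531 in resident cells against monocyte-derived cells). Monocyte-derived library 3 also had the highest summed natural killer cell (92.5 CPM), neutrophil (52.6 CPM) and mast cell markers (15.9 CPM) of all 9. The part of these cells in its Il10 reads was not tested. Its receptor chain Il10rb averaged 84.5 ± 7.23 CPM in converted and 85.8 ± 3.70 CPM in resident cells, against 151.3 ± 39.3 CPM in monocyte-derived cells, 1.79-fold and 1.76-fold lower (edgeR adjusted p = 0.0023 and 0.00275). The ligand-binding chain Il10ra averaged 60.6 CPM in converted, 67.5 CPM in resident and 78.6 CPM in monocyte-derived cells and did not pass (adjusted p = 0.0832 and 0.291).

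Il15 (ENSMUSG00000031712, chr8:82331632-82403222, minus strand) had 8.52, 8.41 and 7.99 CPM in converted libraries, 11.3, 9.23 and 11.9 CPM in resident libraries, and 3.20, 6.76 and 7.83 CPM in monocyte-derived libraries. The 3 groups did not overlap, although the highest monocyte-derived and the lowest converted library were close. Il15 was 1.83-fold higher in resident macrophages (log2 0.87 ± 0.28 SE, edgeR adjusted p = 0.0235), and this call was lost in the fit of the 2 groups alone (adjusted p = 0.0547) and without resident library 1 (0.0667) or 3 (0.0754). The log2 fold change of Il15 was 0.49 ± 0.28 in converted against monocyte-derived cells (adjusted p = 0.167) and -0.38 ± 0.27 in converted against resident cells (adjusted p = 0.473), and neither passed.

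Il15ra, the chain that presents IL-15 to other cells, differed more than Il15 did. It had 24.9, 23.6 and 23.7 CPM in converted libraries, 31.6, 28.8 and 33.0 CPM in resident libraries, and 8.16, 3.64 and 4.99 CPM in monocyte-derived libraries. It was 4.28-fold higher in converted and 5.53-fold higher in resident cells (edgeR adjusted p = 5.22e-05 and 1.86e-05). Il2rb, the signalling chain that IL-15 and IL-2 share on lymphocytes, averaged 1.52 ± 0.562 CPM in converted, 13 ± 3.79 CPM in resident and 17.1 ± 14.4 CPM in monocyte-derived cells. It was 11.2-fold lower in converted than in monocyte-derived cells (adjusted p = 0.00101) and 8.56-fold lower than in resident cells (adjusted p = 0.0175). The second of these calls was lost in 5 alternatives, among them leaving out converted library 1 or 3 or resident library 1 or 3 (adjusted p of 0.0506 to 0.0892 over the 5). The natural killer, dendritic and mast cell marker sums given above were likewise lowest in converted libraries, and their part in the Il2rb difference was not tested.

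**Figure D3:**
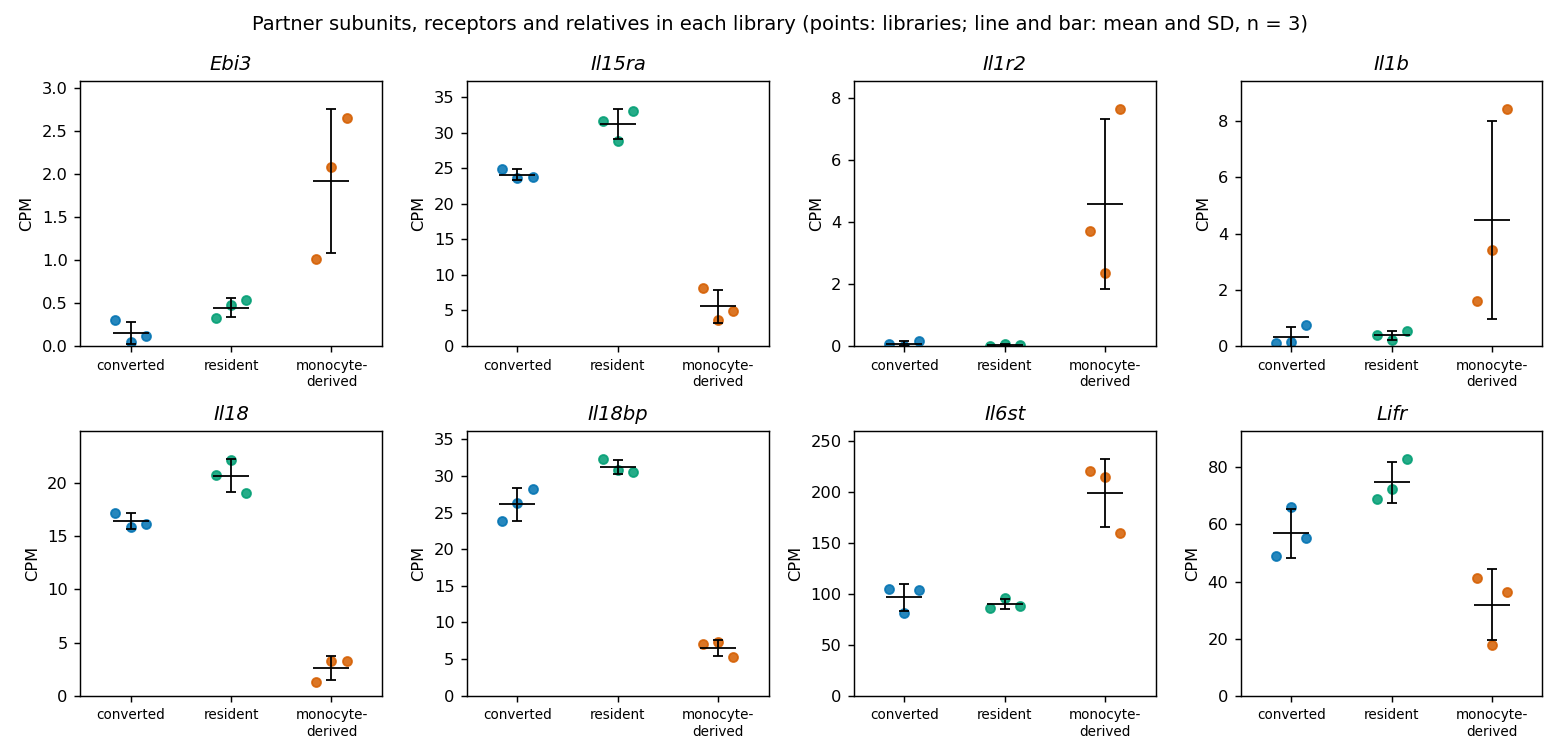
Levels in CPM of 8 genes whose products pair with, bind or resemble the cytokines, for each converted, resident and monocyte-derived library (points), with the mean and SD of 3 libraries, cut at 0 where the SD exceeds the mean. Ebi3, Il1r2, Il1b and Il6st were higher in monocyte-derived macrophages, and Il15ra, Il18, Il18bp and Lifr were higher in tissue macrophages.

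Put per kilobase of exon (RPKM), which allows genes to be set beside each other, Osm and Il6 were the most abundant of the 10 transcripts in tissue macrophages. In converted macrophages the order was Osm (17.3 RPKM), Il6 (13), Il1a (7.08), Il15 (3.67), Il27 (1.08), Il1rn (0.939) and Tnf (0.254). In resident macrophages it was Osm (20.5 RPKM), Il6 (19.6), Il1a (6.68), Il15 (4.79), Il1rn (0.969), Il27 (0.810) and Tnf (0.279). In monocyte-derived macrophages Il1rn came first (17.1 RPKM), followed by Osm (9.13), Il6 (3.78), Tnf (2.68), Il15 (2.62), Il1a (2.37) and Il27 (0.331). Il10, Il12b and Lif had at most 0.289 RPKM in each of the 3 groups. Neighbours such as Osm and Il6 in resident cells, Il27 and Il1rn in either tissue group, or Tnf, Il15 and Il1a in monocyte-derived cells were not separated beyond the spread of the libraries.

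Il1rn made up 2.09%, 2.48% and 2.01% of the summed RPKM of the 10 genes in converted libraries, 2.05%, 1.67% and 1.66% in resident libraries, and 35.5%, 50.7% and 43.1% in monocyte-derived libraries. Osm and Il6 together made up 65.2%, 71.0% and 72.6% in converted libraries, 71.1%, 75.9% and 75.4% in resident libraries, and 43.3%, 27.0% and 34.9% in monocyte-derived libraries. The tissue and monocyte-derived libraries did not overlap in either share. The summed RPKM itself overlapped: 47.0, 32.2 and 51.6 in converted libraries, 52.8, 56.2 and 53.3 in resident libraries, and 22.8, 43.8 and 48.9 in monocyte-derived libraries. The level of Il6 relative to Tnf was 63.9, 156 and 33.6 in converted libraries, 105, 115 and 39.8 in resident libraries, and 1.05, 1.42 and 1.76 in monocyte-derived libraries.

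**Figure D4:**
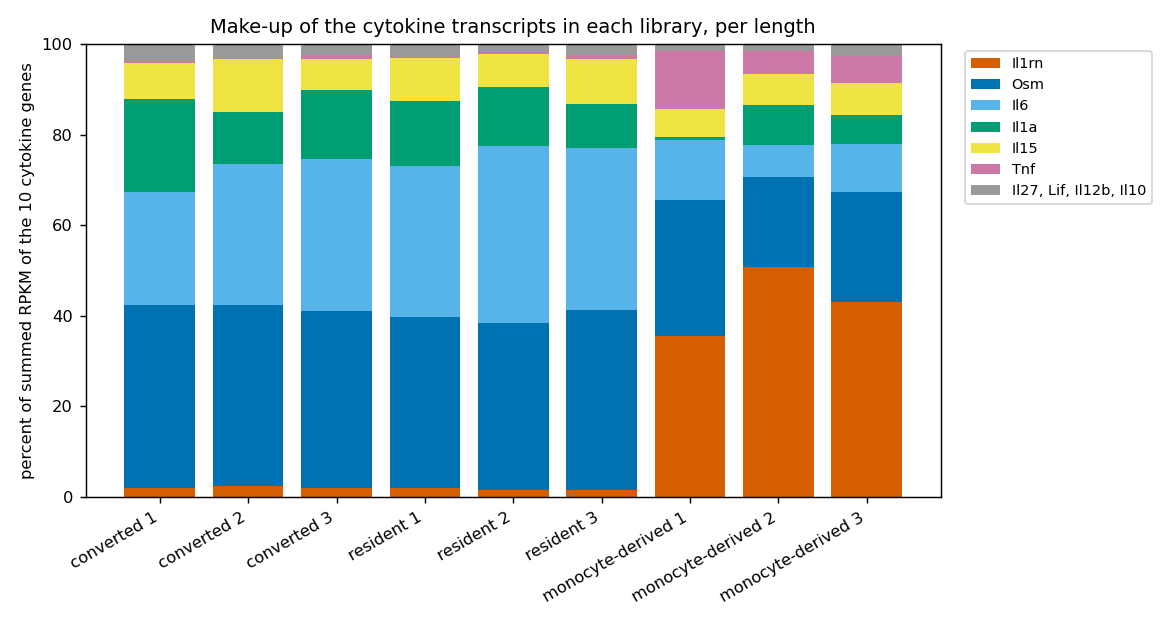
Share of each gene in the summed RPKM of the 10 cytokine genes (percent, stacked to 100) for the 9 libraries. The Il1rn share was 1.66% to 2.48% in the 6 converted and resident libraries and 35.5% to 50.7% in the 3 monocyte-derived libraries.

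Among 17 receptor chains of these cytokines, 16 were tested: 2 were higher (Lifr and Il15ra) and 7 lower in converted than in monocyte-derived macrophages, 2 higher and 5 lower in resident than in monocyte-derived macrophages, and 0 higher and 1 lower (Il2rb) in converted than in resident macrophages. The median log2 fold changes over this list were -0.41, -0.35 and -0.20 in that order, beside the medians near 0 of all genes given above. Of all genes tested, 50.7%, 50.7% and 6.07% were called in these comparisons, so receptor counts over both directions together were near the share over all genes. By direction, 25.8% of all genes were higher and 24.9% lower in converted than in monocyte-derived macrophages, beside 2 and 7 of 16 receptor chains. In resident against monocyte-derived macrophages these shares were 25.7% and 24.9%, beside 2 and 5 of 16. Of 15 partner subunits, relatives and release factors, 10 were tested, with 3 higher and 5 lower, 4 higher and 5 lower, and 0 higher and 2 lower in the same comparisons. Their median log2 fold changes were -0.20, -0.32 and -0.25, and the shares over all genes are those just given. Besides Clcf1, the gene lower in converted than in resident cells was Ltb, which encodes lymphotoxin beta and is made by lymphocytes. Ltb averaged 1.73 ± 0.484 CPM in converted, 11.7 ± 1.72 CPM in resident and 1.49 ± 1.29 CPM in monocyte-derived cells (6.71-fold lower in converted than in resident cells, edgeR adjusted p = 0.00883), alongside the B cell marker sums given above, whose part in it was not tested.

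In the JAK-STAT pathway, which carries IL-6, IL-10, IL-12, IL-15 and IL-27 signals, 3 of 15 genes were higher and 7 lower in converted than in monocyte-derived macrophages, 4 higher and 6 lower in resident than in monocyte-derived macrophages, and 0 higher and 2 lower in converted than in resident macrophages. Over all genes tested, 50.7%, 50.7% and 6.07% were called. Over the pathway the medians were -0.20, -0.08 and -0.38 on the log2 scale. The negative feedback genes did not move as one. Socs3, which restrains gp130 signalling, averaged 113 ± 29.5 CPM in converted and 181 ± 20.1 CPM in resident cells, against 63.0 ± 7.47 CPM in monocyte-derived cells (1.79-fold and 2.88-fold higher, edgeR adjusted p = 0.00342 and 9.76e-05). Socs1, Socs2 and Cish were lower instead, at 22.4, 0.560 and 7.25 CPM in converted and 29.7, 1.80 and 20.3 CPM in resident cells, against 147, 17.9 and 77.0 CPM in monocyte-derived cells. Jak2 was lower at 53.0 CPM in converted and 69.8 CPM in resident cells, against 236.7 CPM in monocyte-derived cells.

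In the NF-kB pathway, which acts above many of these cytokines, 4 of 25 genes were higher and 12 lower in converted than in monocyte-derived macrophages, 5 higher and 10 lower in resident than in monocyte-derived macrophages, and 0 higher and 3 lower in converted than in resident macrophages. The called shares of all genes were 50.7% (24.9% lower), 50.7% (24.9% lower) and 6.07%. Median log2 fold changes over the pathway were -0.26, -0.11 and -0.16. The inhibitor gene Nfkbia averaged 297 ± 41.3 CPM in converted and 376 ± 10.9 CPM in resident cells, against 159 ± 10.2 CPM in monocyte-derived cells (1.86-fold and 2.36-fold higher, edgeR adjusted p = 7.32e-05 and 9.1e-06). Nfkbiz, a co-factor of NF-kB at the Il6 gene, averaged 14.1, 25.7 and 6.13 CPM in converted, resident and monocyte-derived cells, 4.19-fold higher in resident cells (adjusted p = 0.00133), with a converted call (adjusted p = 0.0222) that was lost in 7 alternatives (adjusted p of 0.0532 to 0.0808). The subunit gene Rel was lower at 10.5 CPM in converted and 11.8 CPM in resident cells, against 28.3 CPM in monocyte-derived cells, as was the signalling kinase gene Irak2 at 9.72 CPM and 16.0 CPM, against 34.8 CPM.

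Among 19 transcription factors of cytokine genes, 5 were higher and 12 lower in converted than in monocyte-derived macrophages, 8 higher and 8 lower in resident than in monocyte-derived macrophages, and 0 higher and 10 lower in converted than in resident macrophages. Of all genes, 50.7%, 50.7% and 6.07% were called (4.26% lower in converted than in resident macrophages). All 9 B cell markers were also lower in converted than in resident macrophages, with the sums given above, and their part in these calls was not tested. Over this list the median log2 fold changes were -0.92, -0.13 and -0.62. Maf, a factor of Il10 transcription, was higher in tissue macrophages, at 44.0 CPM in converted and 40.4 CPM in resident cells, against 17.5 CPM in monocyte-derived cells. Cebpb, a factor of Il6 transcription, was higher in converted cells at 649 CPM, against 333 CPM in monocyte-derived cells, and resident cells averaged 745 CPM. Egr2 and Irf8 were lower, Egr2 at 2.71 CPM in converted and 5.96 CPM in resident cells, against 176.6 CPM in monocyte-derived cells (66-fold and 29.6-fold, edgeR adjusted p = 2.43e-06 and 5.88e-06), and Irf8 at 7.28 CPM and 34.1 CPM, against 82.2 CPM. Fos, Fosb and Egr1, which respond within minutes to stimulation, were among the 10 that were lower in converted than in resident macrophages: Fos averaged 285 CPM in converted and 911 CPM in resident cells (3.2-fold lower, adjusted p = 0.00824), Fosb 6.30 CPM and 48.5 CPM (7.69-fold lower, adjusted p = 0.00168), and Egr1 11.9 CPM and 142 CPM (11.9-fold lower, adjusted p = 0.000612). Egr2 and Atf3, which also respond quickly, did not pass in that comparison (adjusted p = 0.135 and 0.899).

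Of 10 genes that bind and destabilise or stabilise cytokine mRNA, 1 was higher and 2 lower in converted than in monocyte-derived macrophages, 1 higher and 3 lower in resident than in monocyte-derived macrophages, and 1 higher and 1 lower in converted than in resident macrophages. The shares over all genes, 50.7%, 50.7% and 6.07%, were above the counts of 3 and 4 of 10 in the first pair of comparisons. Medians over these genes were 0.05, -0.15 and 0.08 on the log2 scale. Zfp36, which encodes tristetraprolin, the protein that marks Tnf mRNA for decay, averaged 450 ± 79.8 CPM in converted, 670 ± 19.2 CPM in resident and 364 ± 47.7 CPM in monocyte-derived cells, and passed as higher in resident cells (1.84-fold, edgeR adjusted p = 0.000435) but not in converted cells (adjusted p = 0.0843). Its relative Zfp36l1 was lower, at 17.6 CPM in converted and 24.9 CPM in resident cells, against 61.3 CPM in monocyte-derived cells (3.48-fold and 2.46-fold, adjusted p = 0.000901 and 0.00518).

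**Figure D5:**
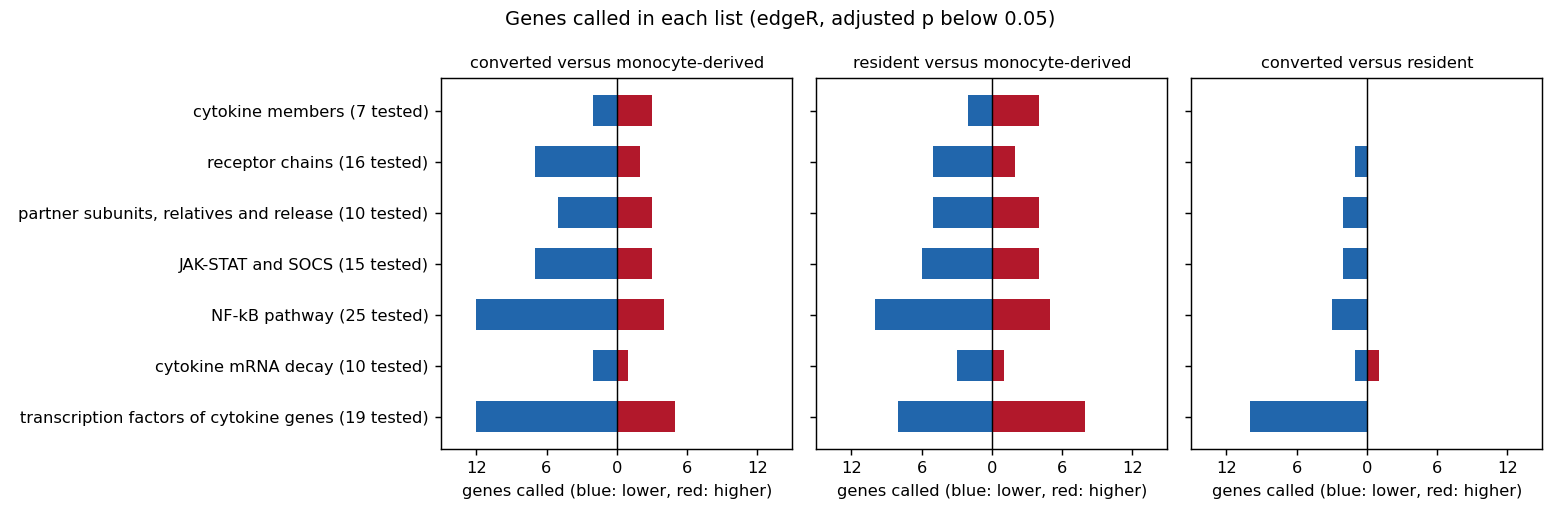
Number of genes called higher (red, right) and lower (blue, left) in the cytokine genes and 6 related lists, for each of the 3 comparisons (edgeR, adjusted p below 0.05), with the number tested beside each list. The cytokine genes had 0 calls between converted and resident macrophages, where the transcription factors had 10, all lower.

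As a description of patterns over the 9 libraries, each tested cytokine gene was compared with 11700 protein-coding genes by Pearson correlation of log2 CPM. The genes with the highest values were Tm4sf19, Mmp12 and Daglb for Il1rn (r = 0.997, 0.996 and 0.995) and Hps6 for Tnf (r = 0.982). For Il6 they were Ctsf, Stk38 and Fam13a (r = 0.981, 0.979 and 0.979), and for Osm Mturn, Dyrk1b and Lrrc34 (r = 0.98, 0.978 and 0.977). Hyal2 was nearest to Il1a (r = 0.989), Ttc32 to Il27 (r = 0.985) and Triqk to Il15 (r = 0.979). Such values are common where libraries fall into separate groups: 1288 genes had an r above 0.9 with Il1rn and 94 with Il15.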

How the data were processed

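The deposited files hold raw read counts per Ensembl gene, 1 table per library. Per the submitters' processing notes, the tools were TopHat2 2.1.0 and HTSeq with build GRCm38. Annotation, strand setting and the treatment of reads with several matches: not given in the sources used here. According to the labels' protocols, RNA was extracted with RNeasy kits and libraries were built with a low-input TotalScript kit.

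Of 47729 identifiers, 47224 matched GENCODE M21. Identifiers without a match were kept under their own names. Summary rows of reads not assigned to a gene did not enter the library sizes. Reads outside annotated features made up 4.02% to 5.66% and ambiguous reads 4.47% to 4.68% of each library. Counts of all 9 libraries were fitted in 1 model with a term per group (edgeR 4.0.16 in R 4.3.3, filterByExpr with a minimum count of 10 and a minimum total of 15, TMM scaling, robust quasi-likelihood F-tests, 6 residual degrees of freedom). The Benjamini-Hochberg adjustment ran over 13223 genes, with calls at an adjusted p below 0.05. Standard errors are the log2 fold change divided by the square root of F, and 95% intervals use the t quantile. CPM are on TMM-scaled library sizes, and RPKM are these CPM per kilobase of merged exons in GENCODE M21. Correlations used log2 CPM with a prior count of 2. The fit was tested on simulated data.

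DESeq2 1.42.0, limma-voom (limma 3.58.1), 3 other scalings, 2 other filters, a fit of 2 groups alone, a block on replicate number and leaving out each library were tried. Same-numbered libraries did not deviate together (r from -0.0939 to 0.0651), so the numbers were not taken as pairs. The smallest chi-square per degree of freedom between libraries of a group was 5.51, above sampling noise. Members and gene lists were chosen with earlier results of these data known. All cytokine genes are named; of the other lists, receptor chains and partners may be named freely, and elsewhere up to 4 called genes per direction with the largest fold change, where the higher group averaged 5 CPM or more. Upstream stretches came from the RefSeq table for GRCm38.p6, in which 6 of the 10 members were matched.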

Additional observations from a re-analysis of the deposited data

How the results depend on the processing

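Of 377 values of the 7 tested cytokine genes under 18 alternatives, 358 kept their direction and side of the threshold, 9 lost the call, 3 gained it and 7 changed sign. All 7 sign changes were differences between converted and resident macrophages that never passed: with 1 library left out, the log2 fold change of Tnf ran from -1.16 to 0.46, that of Il1a from -0.21 to 0.39 and that of Il1rn from -0.118 to 0.062. The 9 lost calls were those of Il27 and Il15 in resident macrophages and the 3 gained calls those of Il1a, given above. Of 100 other named results, 82 kept their call throughout and none changed sign, and 77 of 1800 values lost it.

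Leaving out 1 library gave 5 to 6 cytokine calls in converted and 4 to 6 in resident against monocyte-derived macrophages, and 0 to 0 between converted and resident macrophages; over all genes it gave 5886 to 6845, 5680 to 6875 and 245 to 1628 calls. The converted and resident comparison was the least settled, with 803 calls, 1314 by DESeq2, 2067 in the fit of those 2 groups, 530 with the replicate block, and 1628 without monocyte-derived library 1; the cause was not tested. Of the 803 calls 29.9% were higher, compared with 18.0% under upper-quartile scaling and 18.8% with library size alone. The replicate block changed no call of a cytokine gene. Tnf, Il27, Il10, Il12b and Lif rest on few reads, which limits what could be detected.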
